A study of Mus musculus with 10 samples.

Results

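The authors deposited a list of 428 H3K27ac regions for monocyte-derived macrophages (MDM) of the mouse brain, and 212 of them (49.5%) lie between protein-coding genes. H3K27ac, acetylation of lysine 27 of histone H3, marks active promoters and enhancers. It was profiled by CUT&Tag, in which a transposase tethered to the antibody inserts sequencing adapters into the chromatin around the mark. The 212 regions were chosen by membership of the MDM list, which the authors' test of MDM against YSM libraries produced, and by a midpoint inside no protein-coding gene of the RefSeq annotation. The other list, named for YSM, holds 892 regions, of which 338 lie between protein-coding genes. Both lists together hold 1320 regions, each 2001 bp long.

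Behind the lists stand 4 MDM and 4 YSM H3K27ac libraries of brain parenchymal macrophages, sorted by flow cytometry. The labels do not spell out YSM. Both groups share the genotype Ms4a3Cre:R26-tdTomato and a treatment given as DR-3x, a name that is not explained. In this genotype a Cre recombinase driven by Ms4a3 switches on a red reporter in granulocyte-monocyte progenitors, and their progeny keep it. The series title speaks of blood and skull marrow as sources of the macrophages, and the labels do not say which source an MDM library had. Animal age, and whether animals were pooled in a library, is not given in the labels. Whether the authors' test measured the spread between animals is therefore unknown. The p-values given below compare places in the lists and do not measure that spread. The lists hold no value per library, no fold and no p-value. Levels by sample therefore cannot be shown, and the labelled cell type could not be checked against the levels of its markers. The MDM list was read as regions with more H3K27ac in MDM, so a higher mark there is what chose the regions and not a finding.

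As background, enhancers are stretches of DNA that bind transcription factors and raise the activity of genes that may lie far away. Macrophages take on the enhancer pattern of the tissue they live in, and the pattern also carries traces of their origin. Most enhancers lie in introns or between genes, and the nearest gene is only one candidate for the gene they act on. Gene names below state where a region lies and not which gene it acts on.

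The mark itself was listed at the start of a few genes. In 6 of the 212 regions (2.83%) the whole promoter of a protein-coding gene was contained, counted from 250 bases before to 50 bases after the annotated start. Among the 338 YSM regions between genes, 15 contained such a promoter. Promoters were at hand for 17492 of 21887 protein-coding genes. Starts of the other genes, Thbd, Cd93 and Psd3 among them, could not be counted in either list. The 6 MDM promoters belong to Mgst1, which encodes a microsomal glutathione transferase, Sirpb1b, a receptor gene of the signal-regulatory protein beta family, and Nt5e, which encodes the enzyme CD73 that makes adenosine from AMP at the cell surface. The others belong to Dpp4, which encodes the surface peptidase CD26, Dach1, which encodes a transcriptional cofactor, and Tmtc1, which encodes a mannosyltransferase of the endoplasmic reticulum. Sirpb1b has near-identical relatives beside it, so reads there may be shared between copies.

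All 6 promoter sequences are shown because, of the protein-coding promoters at hand, they are those that member regions covered in full. They come from RefSeq (GRCm38.p6, the assembly of mm10) and run 5′ to 3′ on the strand of the gene. The Mgst1 promoter lies at chr6:138140277-138140576 (plus strand), and that of Sirpb1b at chr3:15575016-15575315 (minus strand). That of Nt5e lies at chr9:88327359-88327658 (plus strand), and that of Dpp4 at chr2:62412182-62412481 (minus strand). The Dach1 promoter lies at chr14:98169716-98170015 (minus strand), and that of Tmtc1 at chr6:148444303-148444602 (minus strand). Capitals mark the letters of 6 motifs searched on both strands.

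Mgst1: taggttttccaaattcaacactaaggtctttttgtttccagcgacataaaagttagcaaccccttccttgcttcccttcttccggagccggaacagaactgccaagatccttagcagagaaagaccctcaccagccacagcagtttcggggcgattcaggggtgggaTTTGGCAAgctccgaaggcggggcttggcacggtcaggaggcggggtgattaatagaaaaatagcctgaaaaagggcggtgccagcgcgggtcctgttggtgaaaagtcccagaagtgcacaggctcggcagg
Sirpb1b: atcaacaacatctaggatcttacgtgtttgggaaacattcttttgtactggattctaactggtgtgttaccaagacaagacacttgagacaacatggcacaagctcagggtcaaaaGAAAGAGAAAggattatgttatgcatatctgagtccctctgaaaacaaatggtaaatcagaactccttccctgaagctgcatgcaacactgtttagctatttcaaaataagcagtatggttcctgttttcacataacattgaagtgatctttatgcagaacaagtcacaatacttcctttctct
Nt5e: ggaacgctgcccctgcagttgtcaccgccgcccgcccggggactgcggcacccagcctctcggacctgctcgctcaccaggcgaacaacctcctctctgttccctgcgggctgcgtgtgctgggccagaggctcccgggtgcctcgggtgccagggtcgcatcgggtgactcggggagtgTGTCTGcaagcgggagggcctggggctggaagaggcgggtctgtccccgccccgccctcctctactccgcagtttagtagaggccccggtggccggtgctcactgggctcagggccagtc
Dpp4: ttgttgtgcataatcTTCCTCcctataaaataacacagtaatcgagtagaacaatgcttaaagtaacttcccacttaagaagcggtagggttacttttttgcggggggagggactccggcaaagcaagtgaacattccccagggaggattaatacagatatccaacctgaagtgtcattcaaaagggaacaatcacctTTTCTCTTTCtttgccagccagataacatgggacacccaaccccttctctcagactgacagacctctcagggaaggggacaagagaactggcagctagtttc
Dach1: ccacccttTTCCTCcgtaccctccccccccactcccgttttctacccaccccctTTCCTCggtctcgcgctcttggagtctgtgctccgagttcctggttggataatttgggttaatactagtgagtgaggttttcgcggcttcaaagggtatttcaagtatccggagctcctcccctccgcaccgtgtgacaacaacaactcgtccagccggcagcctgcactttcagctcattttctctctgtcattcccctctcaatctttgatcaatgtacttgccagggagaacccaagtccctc
Tmtc1: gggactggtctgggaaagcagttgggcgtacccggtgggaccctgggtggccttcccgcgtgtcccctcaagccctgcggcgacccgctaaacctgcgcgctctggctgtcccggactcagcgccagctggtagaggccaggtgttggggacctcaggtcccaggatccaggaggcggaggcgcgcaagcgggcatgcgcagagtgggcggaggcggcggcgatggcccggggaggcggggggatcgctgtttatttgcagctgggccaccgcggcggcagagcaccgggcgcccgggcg

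The motifs were the PU.1 core GAGGAA, the AP-1 site TGANTCA, a C/EBP site TTGCNNAA, the RUNX core TGTGGT, the SMAD core CAGACA, and an interferon regulatory factor (IRF) site made of GAAA, any 2 bases and GAAA again. The PU.1 core and the IRF site can share bases. The IRF letters were found in the promoters of Sirpb1b and Dpp4, so in 2 of 6, against 3.35% of 21263 protein-coding promoters of the same length. The PU.1 core was found in Dach1 and Dpp4, 2 of 6, against 27.4% of all promoters. Mgst1 held the C/EBP letters (10.2% of all promoters) and Nt5e the SMAD letters (18.9%). The AP-1 site (6.99%) and the RUNX core (15.0%) were found in none of the 6. In the Tmtc1 promoter none of the 6 motifs was found. These are matches of letters in 6 sequences and were not tested.

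Among the genes closest to a region were those of surface receptors and enzymes, such as thrombomodulin, CD93, CD26 and CD73. With distances taken from the midpoint of a region, 21 of the 212 lay within 5 kb of the end of a protein-coding gene, at 19 genes. Of these genes, 11 had the region on the 5′ side, which is the side of the annotated start, and 5 on the 3′ side. For 3, Thbd, Cd93 and Psd3, the strand was not given in the table used. Thbd encodes thrombomodulin, a thrombin receptor, and its region (chr2:148407199-148409199) has its midpoint 11 bp outside the gene. Its neighbour on chromosome 2 is Cd93, a C-type lectin-like receptor gene of myeloid cells and vessels, with a region 15 bp outside (chr2:148442550-148444550). At Psd3, which encodes an exchange factor for the ARF6 GTPase, the distance was 138 bp (chr8:68211201-68213201). Several members thus only just met the rule. The MDM regions nearest to the boundary on its other side had midpoints 8 bp inside Anxa1, 27 bp inside Akr1c13 and 29 bp inside Gm9733.

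Nt5e had a second region 54.1 kb from the gene and also on its 5′ side (chr9:88272500-88274500), besides the one at its start. Klrk1, which encodes the activating receptor NKG2D, had 2 overlapping regions on the 5′ side, the nearer 2.05 kb away (chr6:129624953-129626953). Adgre5, the gene of the adhesion receptor CD97, had 3 regions in 1 stretch of 2.9 kb, from 6.79 to 7.68 kb outside the gene (chr8:83747098-83749996). Kcna3, a potassium channel gene of lymphocytes and microglia, had 1 region 1.21 kb on its 5′ side (chr3:107033954-107035954). Trat1, an adaptor of the T cell receptor (1.73 kb), and Cyfip2, a subunit of the actin-regulating WAVE complex (1.97 kb), likewise had 1 region each on the 5′ side. Apoc4, an apolipoprotein gene, had 1 on the 5′ side (2.49 kb, chr7:19682946-19684946). That region was also the member closest to a YSM region, 65.8 kb away.

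On the 3′ side within 5 kb lay regions of Bach2, a transcriptional repressor of lymphoid and myeloid cells (2.24 kb), Tmprss5, a membrane serine protease gene (2.51 kb), Elovl7, a fatty acid elongase gene (3.49 kb), Fshr, the receptor of follicle-stimulating hormone (3.94 kb), and Serpinb2 (0.268 kb). In each of these genes the end closest to the region was thus the end of transcription and not its start. Over all 95 assigned regions with a known strand, 56 (58.9%) lay on the 5′ side and 39 on the 3′ side. Among the YSM regions between genes, 83 of 137 (60.6%) lay on the 5′ side. Regions of the same gene are not independent, and these shares were not tested.

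**Figure D1:**
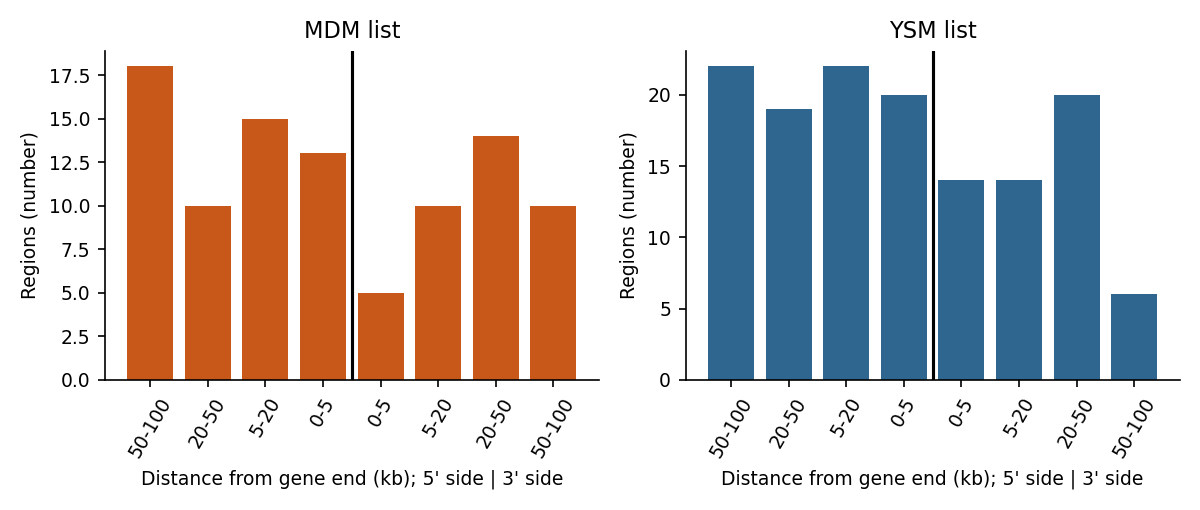
Number of regions by distance from the nearest protein-coding gene end in kb, on the 5′ side (left of the black line) and the 3′ side (right) of genes with a known strand, for the MDM list (95 regions) and the YSM list (137 regions). Within 5 kb the MDM list had 13 regions on the 5′ side and 5 on the 3′ side, and the YSM list 20 and 14. Each panel has its own vertical scale.

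Regions also recurred along families of neighbouring genes. The Serpinb genes on chromosome 1 encode inhibitors of serine proteases, and Serpinb2 among them encodes plasminogen activator inhibitor 2. Between Serpinb11 and Serpinb7 lay 3 regions (chr1:107389054-107403357), from 9.58 kb past the 3′ end of Serpinb11 to 20.3 kb before the start of Serpinb7. Between Serpinb7 and Serpinb2 lay 2 more, 3.79 and 11.1 kb before the start of Serpinb2. The last, at chr1:107524868-107526868, had its midpoint in the short gap between Serpinb2 and Serpinb10, 0.268 kb past the 3′ end of the first. It reached into Serpinb2. Together 6 regions had their midpoint between the genes of this cluster and 2 inside them.

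The resistin-like genes on chromosome 16 encode small secreted proteins, of which the Retnla product is a marker of alternatively activated macrophages and Retnlg is expressed in neutrophils. Each of 3 neighbouring gaps held 1 MDM region. The first, at chr16:48811273-48813273, lay between Trat1 (1.73 kb away) and Retnlb (4.58 kb away). The second lay 8.77 kb on the 5′ side of Retnla (chr16:48832836-48834836). The third lay 7.39 kb on the 5′ side of Retnlg (chr16:48864214-48866214). None of the 3 lay inside a gene. Retnla and Retnlb were named after their regions were seen.

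Dach1 had the most assigned regions, 6 in 3 loci, where a locus joins regions at most 10 kb apart. Of these, 1 covered the promoter shown above and 5 lay on the 3′ side, 26.1 to 43.5 kb beyond the gene (chr14:97742384-97761731). A further 3 MDM regions lay inside the gene. Around Lmo4, which encodes a LIM-only cofactor, 7 regions were spread over both flanks. On the side of the 3′ end 5 regions in 3 loci stretched over 440 kb (chr3:143684938-144124589), in a gap of 1150 kb between 4930519L02Rik and Lmo4. On the 5′ side the 2 others lay 102 and 120 kb away. At Lrrk2, a kinase gene linked to Parkinson disease, 2 regions lay on the 5′ side, 11.7 and 21.1 kb away, and 2 inside the gene.

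**Figure D2:**
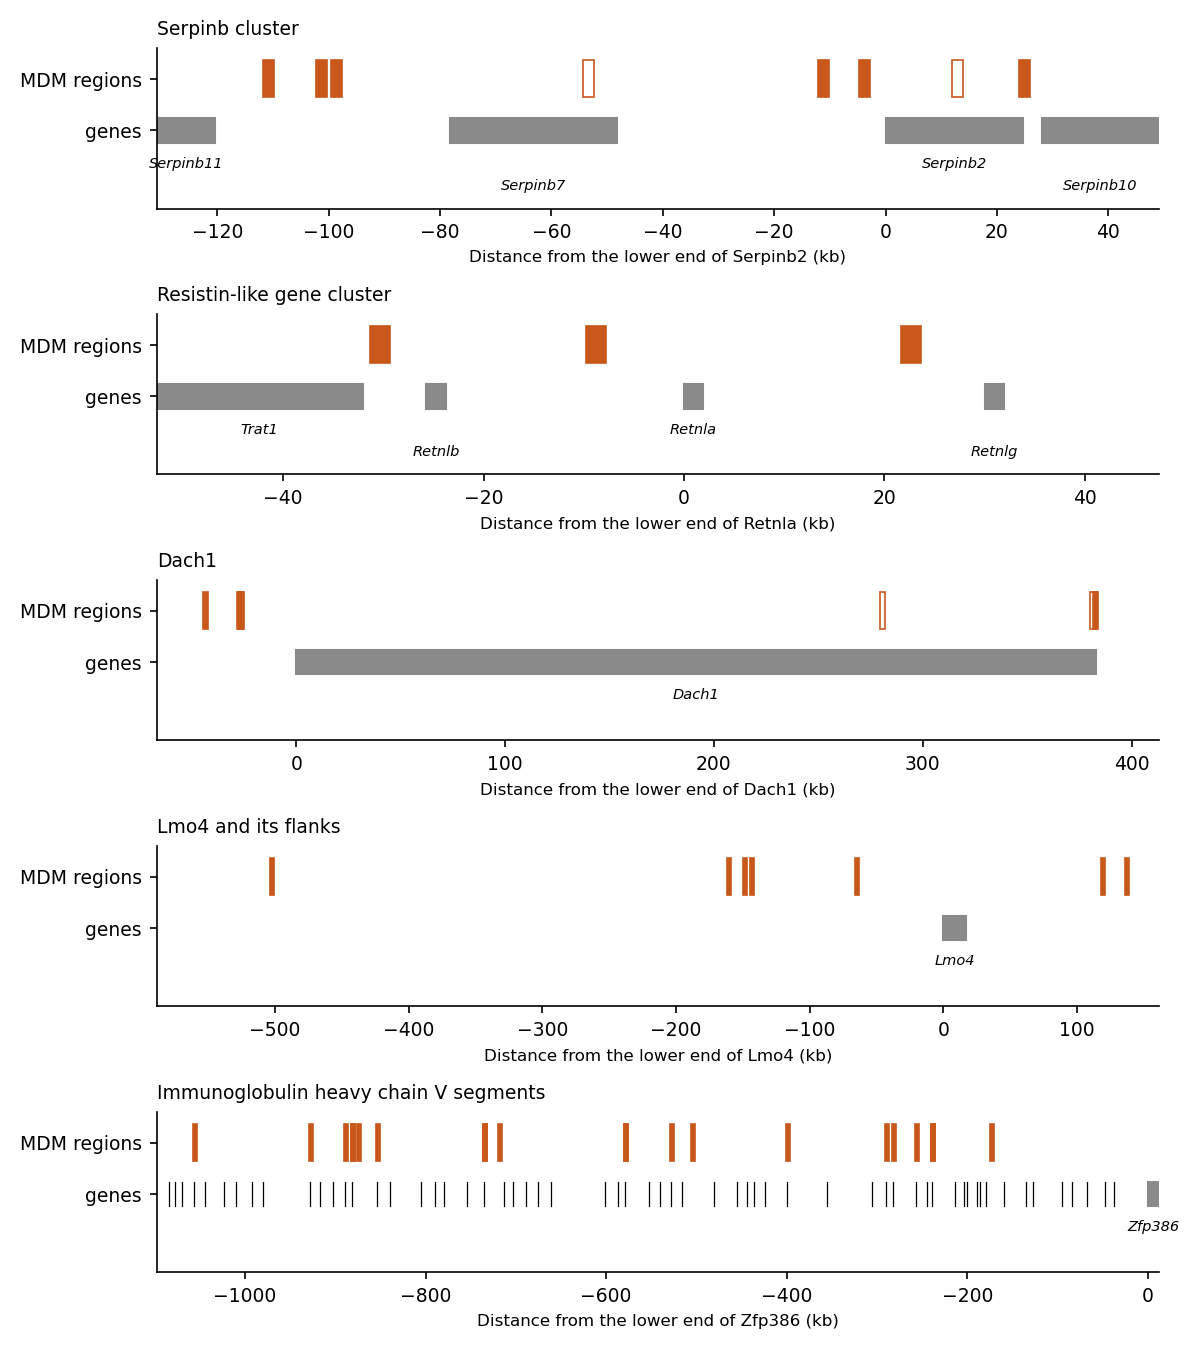
MDM regions (orange, filled when between protein-coding genes and open when inside one) and protein-coding genes (grey) along 5 stretches, with distance in kb from the lower end of the named gene. Narrow regions are drawn at a minimum width and overlapping ones merge, and black ticks in the last panel are V segments. The panels hold 6, 3, 6, 7 and 21 regions between genes, and 2, 0, 3, 0 and 0 inside genes.

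The other genes among the 15 with the most assigned regions had 2 or 3 each. Cwc27, which encodes a cyclophilin of the spliceosome, had 3 on the 3′ side in 1 locus, the nearest 19.8 kb away. Ercc6l2, a DNA repair gene, had 3 on the 5′ side, the nearest 91.5 kb away. Of the 20 genes with 2 regions, the 10 with the nearest region were Sestd1, Hopx, Ddit4l, an inhibitor of mTOR signalling, St8sia4, a polysialyltransferase gene, Olfr985, an olfactory receptor gene, Serpinb11, Nt5e, Klrk1, Fshr and Lrrk2. In all, 120 regions (56.6%) lay within 100 kb of a gene end. They were 64.2% of the 187 regions left without the immunoglobulin heavy chain stretch and a pile on chromosome 2, both described below. These 120 were assigned to 87 genes (0.397% of 21887 protein-coding genes), of which 62 had 1 region. Of the 87 genes, 14 also had an MDM region inside, against 0.667% of all protein-coding genes, and nothing is read from this because the same list gave both. A YSM region lay inside 0 of the 87 and was assigned to 0, against 1.59% and 0.617% of all protein-coding genes, so 0 of 87 is near the background.

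Far from any gene annotated as protein-coding lay 92 regions (43.4%), more than 100 kb from the nearest end. Without the immunoglobulin heavy chain stretch and the chromosome 2 pile, both described below, it was 67 of 187 (35.8%). In the YSM list it was 136 of 338 (40.2%). The immunoglobulin V segments are not annotated as protein-coding, so distances there pass over them. Over 100 kb from a gene, the regions per locus reached 3 or more in 7 loci, all of which are given because they tie under the rule. One was a pile of 4 regions within 6.49 kb of chromosome 2, of which 3 overlap (among them chr2:98665777-98667777). It lay 1030 kb from the nearest gene end in a gap of 3930 kb. The lists hold no reads, so whether reads in the pile are shared with other places could not be checked. Another locus held 4 regions of the immunoglobulin heavy chain (chr12:115157414-115173447). The other 5 had 3 regions each. The first lay 508 kb from Grm8, a metabotropic glutamate receptor gene (chr6:26763924-26767879). The second lay in the gap between Mmadhc, a gene of cobalamin metabolism, and Rnd3 (chr2:50686653-50691370). That gap of 831 kb held 6 regions in 4 loci over 173 kb, and 1 of them had the only deposited score above 1 among the 212 regions, 15. The third lay 220 kb from 4930474N05Rik (chr14:36315912-36329375) and the fourth 159 kb from Spry2, an inhibitor of receptor tyrosine kinase signalling (chr14:105731434-105733990). The last of the 5 was the locus of Lmo4 at 144 kb, described above.

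The stretch between neighbouring genes with the most members was the immunoglobulin heavy chain locus, the genes of antibody heavy chains that B cells assemble from V, D and J segments. It held 21 of the 212 regions (9.91%) in 14 loci, over 885 kb (chr12:114990167-115875266). No region of the YSM list lay there. Of the 21 regions, 17 overlapped a V segment, 13 different segments in all, of which 12 were annotated as genes and 1 as a pseudogene. The regions covered 3.98% of the 885 kb and touched 13 of the 49 V segments in it (26.5%). A segment counts as touched when it shares any base with a region, so these shares are unlike measures. They were not tested against each other. By family, 6 of 14 Ighv8 segments and 7 of 35 Ighv1 segments were touched. Segments of a family resemble each other, so reads may be shared between copies. A single region lay within the T cell receptor beta locus (chr6:41190208-41192208). Of the 19 B and T cell markers found in the gene table, among them Cd79a and Cd3e, 0 were assigned a region between genes. Over all protein-coding genes the share was 0.397%, so 0 of 19 is what the background gives. The part of other cells in these regions was not tested.

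Genes not annotated as protein-coding, called non-coding here, held further members. They include the immunoglobulin and T cell receptor loci, although these encode proteins. Apart from the immunoglobulin stretch and the pile on chromosome 2, 34 of 187 regions had their midpoint inside a non-coding gene, and 31 of the 187 (16.6%) inside 23 long non-coding RNA genes. The YSM list had 65 of 338 regions between genes (19.2%) in such genes. The long non-coding genes with the most regions were 1700024I08Rik, Gm30779 and Gm40161 with 3 each, and Gm32184 and Gm35041 with 2 each. Promoters of 4 long non-coding genes lay wholly in a member: Gm30779, Gm33583, Gm40924 and 4930555A03Rik. Gm33583 starts beside Dach1 on the opposite strand, within the same region.

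**Figure D3:**
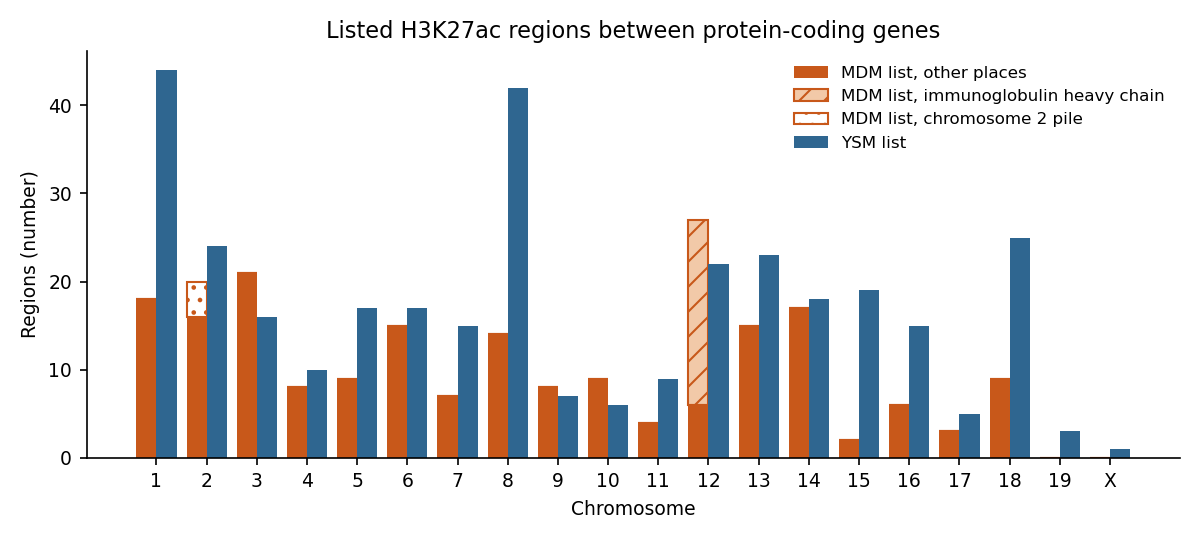
Number of listed regions between protein-coding genes on each chromosome for the MDM list (orange, with the immunoglobulin heavy chain and the chromosome 2 pile hatched) and the YSM list (blue). Chromosome 12 had the most MDM regions, 27, of which 21 were in the immunoglobulin locus, while the YSM list peaked on chromosomes 1 and 8 with 44 and 42.

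The regions fell on 18 chromosomes, with none on 19, X or Y. Apart from chromosome 12 with 27, most lay on chromosome 3 with 21, chromosome 2 with 20 and chromosome 1 with 18, and fewest on chromosome 15 with 2. Without the immunoglobulin stretch chromosome 12 kept 6. Of 128 gaps between genes with an MDM region (a gap being the stretch between 2 neighbouring protein-coding genes), 2 also held a YSM region, which is 1.56% of these gaps and 1.12% of the 179 gaps with a YSM region. Of all 19697 gaps between protein-coding genes 0.65% held an MDM region and 0.909% a YSM region. These shares take no account of gap length, so nothing is read from setting the shared gaps beside them. The 2 shared gaps were that between Ptch1, the Hedgehog receptor gene, and Ercc6l2, and that between Triqk and Runx1t1, a transcriptional corepressor gene. The median distance from a member to the nearest YSM region of any place was 2840 kb, and 4 members had one within 100 kb. Both lists come from the same comparison, and the overlap was not tested.

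Joined into loci, the 212 regions made 158 places, 119 of them with 1 region. No difference between MDM and YSM loci was detected in the 3 shares compared, each with Fisher's exact test, two-sided, adjusted by Benjamini-Hochberg over the 3. These tests compare places in 2 lists and not animals, and neighbouring loci may not be independent. Over 100 kb from a gene end lay 64 of 158 MDM loci (40.5%, exact 95% interval 32.8 to 48.6) and 93 of 248 YSM loci (37.5%, 31.5 to 43.8). The difference was 3.01 percentage points (95% interval -6.74 to 12.75, Fisher's exact adjusted p = 0.901). Inside a non-coding gene lay 40 MDM (25.3%) and 54 YSM loci (21.8%), which differ by 3.54 points (95% interval -4.96 to 12.05, Fisher's exact adjusted p = 0.901). Of the 40, 14 were loci of the immunoglobulin heavy chain, which counts here because it is not annotated as protein-coding. Outside the immunoglobulin stretch and the pile 26 remained. With 2 or more regions stood 39 MDM (24.7%) and 60 YSM loci (24.2%), which differ by 0.49 points (95% interval -8.09 to 9.07, Fisher's exact adjusted p = 0.906). Without the immunoglobulin stretch and the chromosome 2 pile all 3 differences turned to the other side, to -3.23, -3.59 and -1.12 points, and again none passed.

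**Figure D4:**
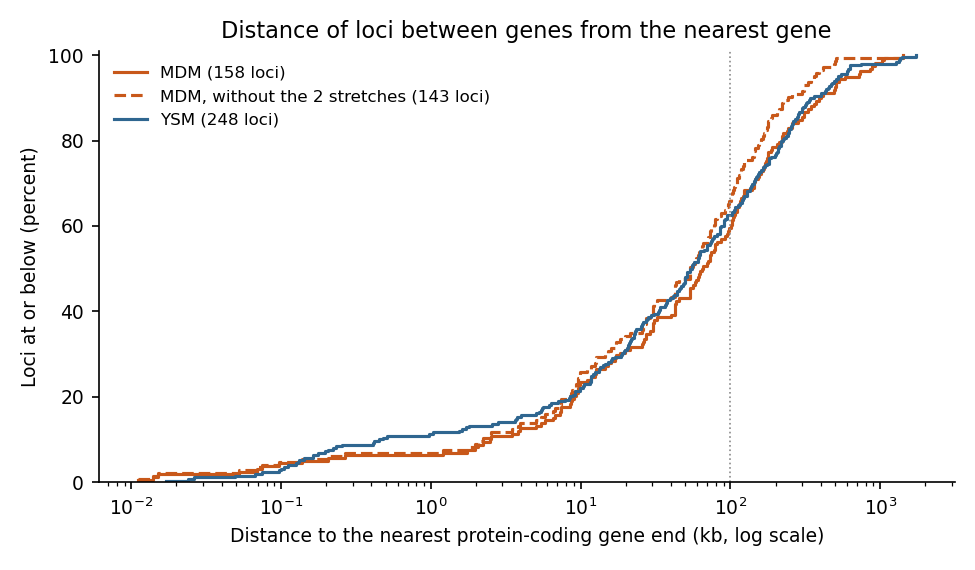
Cumulative percent of loci against the distance to the nearest protein-coding gene end in kb, on a log axis, for MDM loci (orange, dashed without the immunoglobulin stretch and the chromosome 2 pile) and YSM loci (blue). The dotted line is at 100 kb, beyond which lay 40.5% of MDM and 37.5% of YSM loci.

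The distances moved with the immunoglobulin stretch and the chromosome 2 pile. With both the median distance of a region to a gene end was 72.9 kb (quartiles 16.7 and 188.0 kb), and without these 25 regions it was 58.1 kb (12.6 and 144.0 kb). For YSM regions it was 61.4 kb (16.1 and 199.0 kb). Regions over 500 kb from a gene numbered 23 of 212 with and 5 of 187 without the 2 stretches, against 19 of 338 in the YSM list. In gaps over 1 Mb stood 31 of 158 MDM loci (19.6%), 16 of 143 without the 2 stretches (11.2%), and 72 of 248 YSM loci (29.0%). That comparison was chosen after the values were seen and was not tested.

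Gene lists for macrophage types and states held few genes with an assigned member. Over all 21887 protein-coding genes, 0.397% were assigned an MDM region between genes and 0.617% a YSM region between genes. Of 370 listed genes found in the table, 7 (1.89%) had an MDM region (Bach2, Cd93, Dach1, Mgst1, Pmepa1, Retnlg and Sirpb1b) and 12 (3.24%) a YSM region. Both shares lay above those over all genes. Nothing is read from this, for the reasons given at the end of this paragraph. The list of engrafted or monocyte-derived macrophages had 3 of 46 genes with an MDM region, Cd93, Mgst1 and Sirpb1b, each with its region within 1 kb, and 0 with a YSM region. All 3 regions reach into their gene, and with regions that share no base with a protein-coding gene the count for this list was 0 of 46. Microglia identity had 1 of 41, Pmepa1, which TGF-beta induces, with its region 72992 bp away (chr2:173348723-173350723), and 3 with a YSM region, Fscn1, Sall1 and Sall3. Myeloid transcription factors had 2 of 74, Bach2 and Dach1, against 1 with a YSM region, Klf12. Granulocyte markers had 1 of 19, Retnlg, against 0. Lists for border-associated macrophages, cytokines and chemokines with their receptors, adhesion and migration, and lysosome and phagocytosis had 0 genes with an MDM region. So did those for neurons, glia, endothelial and mural cells, and B and T cells. A YSM region was assigned to Grin2a and Snap25 of neurons, Mog and Slc1a3 of glia, and Marco and Timd4 of lysosome and phagocytosis. It was also assigned to Cxcl13 of the cytokine list and Robo2 of the adhesion list, and to 0 genes of the other 3 lists. The lists were drawn up with results on these data known, the MDM list itself chose the regions, and no test of a gene list was made.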

How the data were processed

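H3K27ac was profiled by CUT&Tag in 4 MDM and 4 YSM libraries. 2 further libraries, named H3K27me3, were not analysed here. The authors deposited 1 list of regions per group, with no header. Each region carries 1 measurement, a score that the authors deposited as whole numbers without saying what it means, and it is 1 in 421 of 428 MDM and 871 of 892 YSM regions. The submitters' processing notes list HOMER, Picard, Bowtie2 2.2.5 and Trimmomatic 0.39 with the build mm10, without their roles. The file names refer to a test between the groups, but neither its threshold nor its direction is given in the sources used here, and a list named for MDM was read as higher in MDM. Read depth is unknown, and regions tested and not listed are not analysed here.

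Starts were shifted to count from 1. Genes came from a RefSeq table of GRCm38.p6 with 21887 protein-coding genes, matched by position. Strands came from its promoter table, which covers 17492 of them. Each region went to the gene whose end was closest to its midpoint, up to 100 kb. Regions of 1 list at most 10 kb apart were joined into loci. Fisher's exact tests and exact Clopper-Pearson intervals used SciPy 1.17.1 (Python 3.11.15, pandas 2.3.3), with a threshold of 0.05, and intervals of differences are normal approximations that cover counting error only. The placing of regions was tested on simulated data. The members, the 12 gene lists and the comparisons were chosen with earlier results of these data known.

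The genes named are the 15 with the most assigned regions (of genes with equal numbers, those with the nearest region), members of the gene lists, up to 20 with a region within 5 kb, and the genes flanking the 5 loci with the most regions over 100 kb from a gene, where ties made 7. Others were named after their values were seen.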

Additional observations from a re-analysis of the deposited data

How the results depend on the processing

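No paired analysis was possible because single libraries have no values in these lists, which also kept any library from being left out. Depth is unknown, so what it limits cannot be stated. In the 3 shares of loci no alternative brought a difference past the threshold, with Fisher's exact adjusted p from 0.339 to 1, so the signs below carry little weight. The MDM minus YSM difference in loci far from genes, 3.01 points, turned to -3.23 without the immunoglobulin stretch and the chromosome 2 pile, -2.78 without the first alone, -5.3 outside genes of every type and -1.46 with a limit of 200 kb. That in non-coding genes, 3.54, turned to -3.59 without both stretches and -3.72 without the immunoglobulin stretch alone. It was not computed outside genes of every type, where it is 0 by construction. That in loci of 2 or more regions, 0.49, turned to -1.12 without both, -0.58 without the immunoglobulin stretch, -0.05 outside genes of every type, -0.49 when only overlapping regions were joined and -0.51 with regions as the unit. The settings that leave out 1 stretch alone were added after seeing the data. Members numbered 187 without both stretches, 157 outside genes of every type and 202 with no base in a protein-coding gene. A score above 1 left 1 region in 1 locus, since nearly all scores equal 1. Listed genes with a member numbered 7, and 4 with no base in a gene, a setting that removes regions at promoters by construction. They numbered 6 with a limit of 50 kb, 6 outside genes of every type and 8 with no limit, which added Gja1 of the glia list. With both flanking genes counted they numbered 9. Border-associated macrophages then had 1 of 17, Cd38, and myeloid transcription factors 3 of 74, with Gfi1 added.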

Other observations

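Some members lay at genes outside the rule for naming, chosen after their places were seen. A region at chr5:43854949-43856949 lay between Bst1 and Cd38, which both encode surface enzymes that consume NAD, 12.5 kb from the first and 12.9 kb from the second. A region at chr5:107687481-107689481 lay 28.2 kb from Gfi1, a transcriptional repressor of the granulocyte and lymphoid lineages, with Rpap2 slightly nearer at 26.6 kb. A pair of overlapping regions lay 164 and 165 kb on the 3′ side of Hlx, a homeobox gene of blood cells (chr1:184561495-184564071). Inhba, which encodes a subunit of activin, had regions on both sides, 154 and 153 kb away (chr13:15849665-15851665 and chr13:16183321-16185321), the first nearer to Gli3. A region inside the long non-coding gene 9530052E02Rik lay 7.44 kb on the 5′ side of Irs2, an adaptor of insulin signalling (chr8:11015365-11017365).

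Several genes of transcription factors had more than 1 region on their 5′ side. Arntl, the gene of the clock factor BMAL1, had overlapping regions 30.5 and 30.9 kb away, and Max, the gene of the partner of MYC, 57.8 and 58.1 kb away. Tle1, a corepressor gene of the Groucho family, had 3 regions in its 5′ gap, at 98.4, 179.0 and 407.0 kb, each a locus of its own. The last of these lay nearer to Aldoart1, at 243 kb. Pou1f1, a pituitary transcription factor gene, also had 3 in its 5′ gap, at 69.5, 69.7 and 114.0 kb. Among genes of mitochondrial enzymes, Gpd2 had 1 region at 5.05 kb, Nnt 1 at 8.51 kb and Ndufs4 1 at 17.3 kb. Crlf2, a subunit of the receptor of thymic stromal lymphopoietin, had 1 region 5.79 kb on its 3′ side (chr5:109547919-109549919). The member farthest from any protein-coding gene lay 1410 kb from Cntnap5b (chr1:101901380-101903380), outside the immunoglobulin stretch and the pile.

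The pile of regions on chromosome 2 took rows 1, 2, 4 and 11 of the deposited MDM list. The order of the rows has no stated meaning. Region names end in a whole number, also of unstated meaning, with a median of 4 over the 212 MDM regions and 2 over the 338 YSM regions between genes.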
